A study of Mus musculus with 14 samples.

Results

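Marker genes of recruited and lipid-associated liver macrophages, 10 in all, were followed across 14 liver arrays, namely Cx3cr1, Ly6c2, Ccr2, Trem2, Gpnmb, Cd9, Itgax, Lgals3, Mmp12 and Spp1. The members were taken as a named list, and for each gene the probe set annotated with that symbol alone was used, the brightest on average where there were several. This gave values for 9 of the 10 genes among 22180 genes in all. Spp1, the secreted phosphoprotein osteopontin, was not matched by this rule and is not analysed here. All 14 mice were male C57BL/6 animals carrying Alb-cre, a transgene that expresses Cre recombinase in hepatocytes from the albumin promoter. Macrophages do not express albumin and are not a target of this Cre. The floxed gene, Lmna, encodes the A-type lamins that line the inside of the nuclear envelope. The groups were LMNA +/+; Alb-cre+ on normal chow (called WT, 2 mice, 24.6 and 27 weeks old), LMNA flx/+; Alb-cre+ on normal chow (HET, 3 mice, 24 to 26.4 weeks) and LMNA flx/flx; Alb-cre+ on normal chow (KO, 3 mice, 38.9 weeks). LMNA flx/+; Alb-cre+ (3 mice, 30 to 30.4 weeks) and LMNA flx/flx; Alb-cre+ animals (3 mice, 35.3 weeks) also received a regimen called HFD here. It was 14 weeks of the Surwit diet, rich in fat and sucrose, with 42 g/L of carbohydrate in the drinking water, 55% of it fructose and 45% sucrose. The mean age of KO mice exceeded that of HET mice by 13.3 weeks in the chow arm and by 5.17 weeks in the HFD arm, so that age and genotype cannot be told apart.

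Resident liver macrophages, the Kupffer cells, mostly maintain themselves locally. When they are lost or when the liver is injured, monocytes enter from the blood by way of the chemokine receptor CCR2 and become macrophages. In fatty liver some of these take on a lipid-handling state, called lipid-associated, that is marked by the lipid receptor TREM2 together with GPNMB, CD9, the integrin CD11c (Itgax) and osteopontin, and that gathers in aggregates around dying hepatocytes and scar. Values below are log2 intensities after robust multi-array averaging (RMA), differences are between group means, and ± after a difference is its standard error from limma, an empirical Bayes linear model. A gene is called when its limma p, adjusted by Benjamini and Hochberg over all 22180 genes, is under 0.05, and only called genes are said to rise or fall. Precision is limited by group sizes of 2 or 3 mice.

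The start regions of several markers are shown so that the promoters of the markers can be compared directly. All 10 members had RefSeq promoter windows (build GRCm38.p6) of 250 bases before to 50 after each annotated start. In the lines that follow, 80 bases before and 20 from the start onward are printed 5′ to 3′ on the strand of the gene. Capitals mark the letters TGANTCA, bound by AP-1 factors, or, in Ly6c2, AGAGGAAG, the core bound by the myeloid factor PU.1. Cx3cr1 holds neither and is printed without capitals, as the marker that separated the groups most clearly.
Cx3cr1, chr9:120068277-120068376, minus strand: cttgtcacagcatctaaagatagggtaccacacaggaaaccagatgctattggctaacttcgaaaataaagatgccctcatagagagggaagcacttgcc
Trem2, chr17:48346321-48346420, plus strand: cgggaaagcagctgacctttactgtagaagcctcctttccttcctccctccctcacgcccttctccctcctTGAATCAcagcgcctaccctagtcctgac
Itgax, chr7:128129470-128129569, plus strand: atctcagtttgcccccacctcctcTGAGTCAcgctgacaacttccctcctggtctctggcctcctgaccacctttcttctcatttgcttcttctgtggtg
Mmp12, chr9:7347294-7347393, plus strand, the downstream of its 2 annotated starts: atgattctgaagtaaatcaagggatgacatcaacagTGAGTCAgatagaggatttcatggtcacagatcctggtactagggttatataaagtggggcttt
Gpnmb, chr6:49036438-49036537, plus strand: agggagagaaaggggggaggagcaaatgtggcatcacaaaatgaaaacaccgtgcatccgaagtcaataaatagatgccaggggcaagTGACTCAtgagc
Ly6c2, chr15:75111918-75112017, minus strand: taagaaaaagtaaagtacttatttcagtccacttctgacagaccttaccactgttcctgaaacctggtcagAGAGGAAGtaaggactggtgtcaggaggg
The AP-1 letters TGANTCA, which read the same on both strands, lay in 4 of the 13 windows of the 10 genes, 1 each in Trem2, Itgax, Mmp12 and Gpnmb, against 7.81% of all 32851 windows. They began 9 bases before the start in Trem2, 56 before it in Itgax, 44 before it in Mmp12 and 8 bases after the start base in Gpnmb. The PU.1 letters AGAGGAAG, searched on both strands, were in 3 of the 13 windows, 1 of Mmp12 and both overlapping windows of Ly6c2, against 4.55% of all windows. The interferon-stimulated response element, searched on both strands as 2 copies of GAAA with any 2 bases between them, was in 1 of 13 (Spp1) against 3.44%. TCACGTGA, the box of MITF and TFE factors, was in 0 of 13 against 0.974%. No match overlapped one of another motif. A match describes the letters alone.

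Cx3cr1 and Ly6c2, markers found on monocytes, were low in every WT and HET liver and higher in every KO liver on both diets. Cx3cr1 encodes the fractalkine receptor of monocytes and young monocyte-derived macrophages. Its values were 2.40 and 2.68 in WT, 2.86, 2.52 and 2.87 in HET and 5.43, 5.43 and 5.20 in KO livers on chow. On HFD they were 2.82, 3.38 and 2.93 in HET and 5.93, 5.70 and 6.11 in KO livers. All 6 KO arrays thus stood at least 5.20 and the 8 others at most 3.38. The WT and HET values lay only 0.16 to 1.08 above the median of their array, so the size of the fold is uncertain here too. The rise in KO over HET livers was 2.87 ± 0.17 on HFD (7.31-fold, adjusted p = 1.26e-06), beside 2.61 ± 0.17 on chow (6.08-fold, adjusted p = 3.25e-06) and 2.81 ± 0.19 over WT on chow (adjusted p = 6.99e-06). The chow comparisons share the KO arrays.

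**Figure D1:**
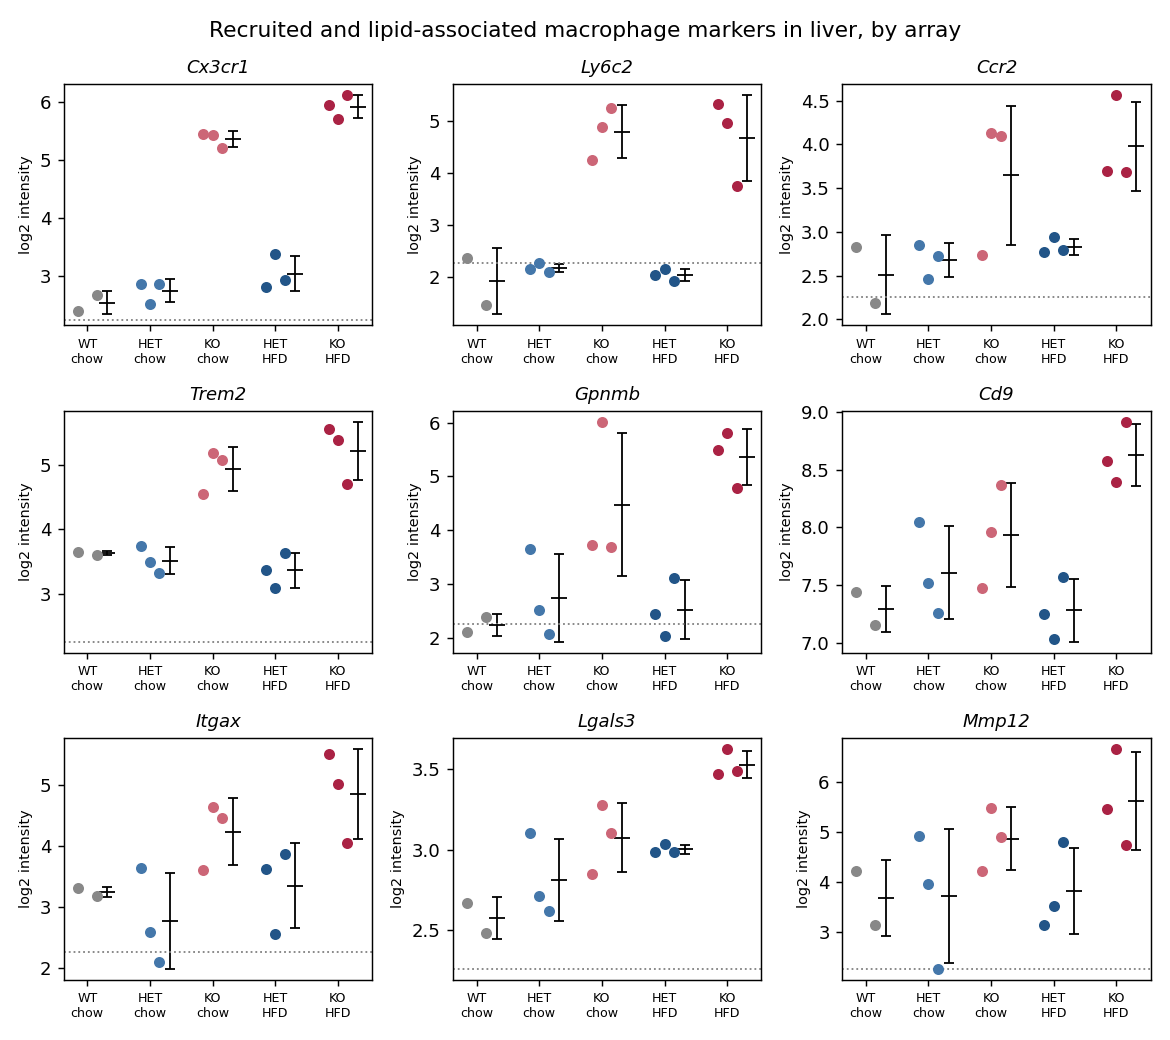
Log2 intensity of the 9 measured markers in each of the 14 liver arrays, by group, where points are arrays, black bars the group mean ± SD beside them and the dotted line the mean of the array medians (drawn where values come near it, with each panel on its own axis). Cx3cr1, Ly6c2, Trem2 and Gpnmb in all 6 KO arrays lie above all 8 other arrays, while Ccr2, Cd9, Itgax, Lgals3 and Mmp12 overlap.

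Ly6c2, a surface antigen of inflammatory Ly6C-high monocytes, was measured in chow-fed mice at 2.36 and 1.46 in WT, 2.14, 2.26 and 2.09 in HET and 4.24, 4.88 and 5.25 in KO livers. The HFD arrays read 2.02, 2.14 and 1.91 in HET and 5.34, 4.95 and 3.75 in KO livers. Again no KO array overlapped any other, although KO C4 on HFD was the lowest of the 6. The KO rise over HET was 2.65 ± 0.36 on HFD (adjusted p = 8.20e-04) and 2.63 ± 0.36 on chow (adjusted p = 0.00185), and over WT on chow 2.88 ± 0.40 (adjusted p = 0.00211). In 7 of the 8 WT and HET arrays the value was below that array's median, so the size of these rises is uncertain. Ly6c1, a close relative that arrays may not separate from it, stayed below the array median in all 14 arrays, at 0.98 to 1.87, and was not called in any contrast (KO minus HET on chow 0.11 ± 0.18, adjusted p = 0.861, and on HFD 0.36 ± 0.18, adjusted p = 0.306). Without HET F1 and F2 together, P1 was the only HET array on chow. The chow difference of Ly6c2 over HET was then 2.70 with a larger standard error, and its call was lost.

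Ccr2, the receptor that brings monocytes out of the bone marrow and into tissue, was not called. It was at 2.83 and 2.19 in WT, 2.85, 2.47 and 2.72 in HET and 2.73, 4.13 and 4.09 in KO livers on chow. KO H1 lay among the controls and the other KO arrays above them. On HFD the values were 2.77, 2.94 and 2.79 in HET and 3.69, 4.57 and 3.68 in KO livers, with no overlap. The KO minus HET difference was 0.97 ± 0.34 on chow (adjusted p = 0.211) and 1.15 ± 0.34 on HFD (adjusted p = 0.0589). Without KO H1 it was called in both, at 1.43 (adjusted p = 0.0144) and 1.15 (adjusted p = 0.0109). KO H1 is a chow array, so on HFD only the standard error from the shared fit changed, to 0.23. On HFD the difference was also called with the trended variance prior, the filter on dim probe sets, only the groups compared or centring on array medians (adjusted p = 0.0336 to 0.119 over the alternatives other than single arrays and age).

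Trem2 and Gpnmb, surface markers of the lipid-associated state, were higher in all 6 KO livers than in all 8 others. TREM2 binds lipids and lipoproteins and signals through the adaptor TYROBP. Its values were 3.65 and 3.61 in WT, 3.74, 3.50 and 3.32 in HET and 4.55, 5.18 and 5.08 in KO livers on chow, then 3.37, 3.09 and 3.64 in HET and 5.56, 5.39 and 4.70 in KO livers on HFD. It rose by 1.85 ± 0.23 in KO over HET livers on HFD (3.61-fold, adjusted p = 4.07e-04), beside 1.42 ± 0.23 on chow (adjusted p = 0.00602) and 1.31 ± 0.26 over WT (adjusted p = 0.0200). The call against WT was lost without WT G1 (adjusted p = 0.102), WT N1 (0.155), KO H2 (0.0817) or KO I1 (0.0812), and with only the 5 arrays compared (0.0584). Without HET F1 and F2 together, with P1 the only HET array on chow, the chow difference of Trem2 over HET was 1.62. Its standard error was larger, and the call was lost.

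Gpnmb, a transmembrane glycoprotein of lysosome-rich macrophages, spread more widely within groups. On chow it was 2.10 and 2.38 in WT, 3.65, 2.52 and 2.06 in HET and 3.72, 6.01 and 3.69 in KO livers. HET F1 came just under 2 of the KO arrays, and KO H2 stood far above them. On HFD it was 2.43, 2.02 and 3.10 in HET and 5.49, 5.80 and 4.79 in KO livers. The rise on HFD, 2.84 ± 0.57 (7.16-fold, adjusted p = 0.00851), was called, while the chow differences of 1.73 ± 0.57 against HET (adjusted p = 0.180) and 2.24 ± 0.63 against WT (adjusted p = 0.129) were not. The difference between the diets, the interaction, was 1.11 with a 95% interval of -0.62 to 2.85 (adjusted p = 0.692), so it was not shown to differ. WT and HET values of Gpnmb lay near the array medians, and its fold is uncertain for that reason.

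Cd9 and Lgals3 were called in KO over HET livers on HFD and not on chow. Cd9 encodes a tetraspanin that is also made by other liver cells, and its signal lay far above the array medians in all arrays. Its values were 7.44 and 7.15 in WT, 8.05, 7.51 and 7.26 in HET and 7.47, 7.96 and 8.37 in KO livers on chow, where the groups overlapped (KO minus HET 0.33 ± 0.25, adjusted p = 0.640). On HFD they were 7.25, 7.03 and 7.57 in HET and 8.58, 8.39 and 8.91 in KO livers, a rise of 1.34 ± 0.25 (2.54-fold, adjusted p = 0.00545). A second, dim probe set of Cd9, at 1.33 to 2.00 and below the median on 14 of 14 arrays, gave 0.11 on HFD (adjusted p = 0.725), and the mean of both probe sets gave 0.73 and was called. The interaction for Cd9 was 1.02, interval 0.26 to 1.77, with an unadjusted p of 0.0125 and an adjusted p = 0.368 in limma, and was not called.

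Lgals3, the carbohydrate-binding protein galectin-3 (also called Mac-2), had the smallest KO minus HET difference of the 9 on both diets. Its values lay only 0.20 to 1.42 above the median of their array, KO livers included, so the size of these differences is uncertain. On chow Lgals3 was 2.67 and 2.48 in WT, 3.10, 2.71 and 2.62 in HET and 2.85, 3.28 and 3.10 in KO livers, with overlap between KO and HET (0.26 ± 0.14, adjusted p = 0.458). On HFD the values were 2.99, 3.03 and 2.99 in HET and 3.47, 3.63 and 3.49 in KO livers, a rise of 0.53 ± 0.14 (1.44-fold, adjusted p = 0.0382). This call was lost without any 1 of the 6 HFD arrays (adjusted p = 0.0809 to 0.119), with a second quantile normalization (0.27, adjusted p = 0.272), with the trended prior (adjusted p = 0.0868) and with the array letter as a block (adjusted p = 0.0525). The interaction for Lgals3 was 0.27, interval -0.17 to 0.70, with an adjusted p = 0.709 in limma, and was not called.

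**Figure D2:**
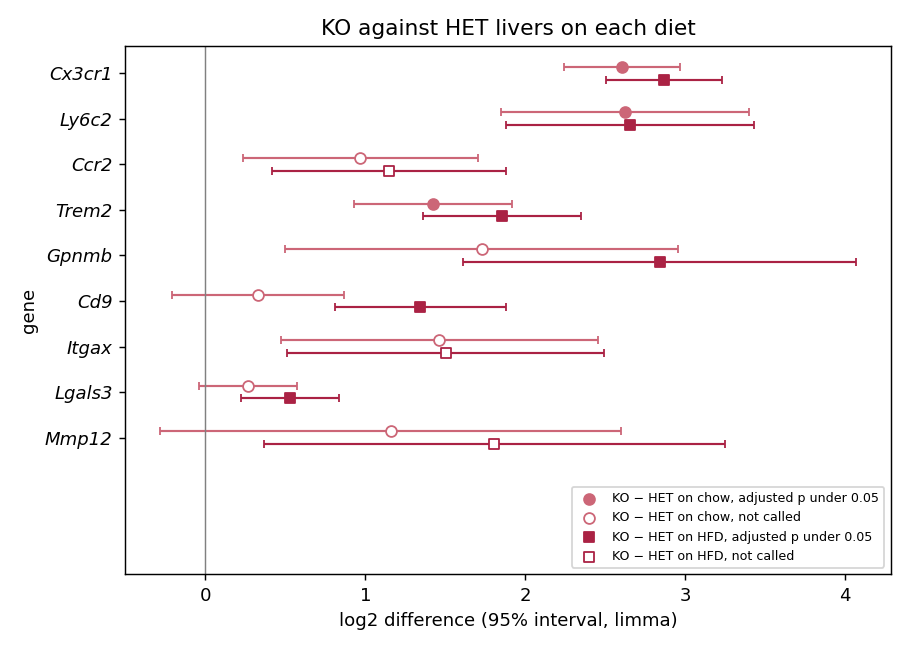
Log2 difference of KO minus HET livers with its 95% interval from limma, for each measured marker on chow (circles) and on HFD (squares), filled where the adjusted p was under 0.05. The estimates are above 0 for 9 of 9 markers on both diets, and 3 on chow and 6 on HFD are filled.

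Itgax and Mmp12 were higher on average in KO livers but not called. Itgax encodes CD11c, the integrin alpha chain shared by dendritic cells and lipid-associated macrophages. Its values were 3.30 and 3.18 in WT, 3.64, 2.58 and 2.09 in HET and 3.61, 4.64 and 4.46 in KO livers on chow, with HET F1 just above KO H1. On HFD they were 3.62, 2.56 and 3.87 in HET and 5.50, 5.01 and 4.05 in KO livers, without overlap. The KO minus HET difference was 1.46 ± 0.46 on chow (adjusted p = 0.155) and 1.50 ± 0.46 on HFD (adjusted p = 0.0672). The HFD difference was called without HET F1 (adjusted p = 0.0444) or KO C4 (1.91, adjusted p = 0.0402). HET F1 is a chow array, so without it the HFD difference stayed at 1.50 and only its standard error changed, to 0.405.

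Mmp12, the macrophage elastase, had the largest standard error of the 9. On chow it was 4.21 and 3.14 in WT, 4.92, 3.96 and 2.25 in HET and 4.23, 5.48 and 4.90 in KO livers, and the groups overlapped. On HFD it was 3.14, 3.51 and 4.79 in HET and 5.46, 6.67 and 4.74 in KO livers, where KO C4 lay below HET B2. The differences were 1.16 ± 0.67 on chow (adjusted p = 0.497) and 1.81 ± 0.67 on HFD (adjusted p = 0.134). The chow difference ran from 0.43 without HET P1 to 1.76 without HET F1, with no call.

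Counted together, 6 of the 9 measured markers rose and 0 fell in KO over HET livers on HFD, where 5.5% of all genes were called higher and 2.06% lower. On chow 3 rose and 0 fell against HET, with 1.44% of all genes called higher and 0.478% lower. Against WT 3 rose and 0 fell as well (Cx3cr1, Ly6c2 and Trem2 in both), with 1.24% and 0.41% of all genes. The median difference of the 9 was 1.81 on HFD, 1.42 on chow against HET and 1.19 against WT, and that of all genes -0.02, -0.01 and 0.00. All 6 KO arrays stood above all 8 others for 4 of the 9 markers and for 2.77% of all genes. On HFD 8 of 9 had KO arrays wholly above HET arrays, Mmp12 being the exception, against 13.3% of all genes. On chow KO arrays lay wholly above HET arrays for 4 of 9 (9.59% of all genes) and above WT arrays for 8 of 9, all but Ccr2 (15.1% of all genes). A second quantile normalization changed the split of called genes on HFD from 1221 higher and 456 lower to 954 and 713, and with it 5 of the 9 markers were called higher. Lmna itself, read by a dim probe set, was 3.85 ± 0.22 in KO and 4.31 ± 0.08 in HET livers on chow (SD, n = 3 each). On HFD it was 3.99 ± 0.09 and 4.15 ± 0.13 (SD, n = 3 each). On chow the KO arrays of Lmna (3.67 to 4.09) lay below the HET arrays (4.25 to 4.40), and on HFD the groups overlapped. The Lmna change was called on neither diet (on HFD -0.16 ± 0.12, adjusted p = 0.517). In bulk tissue more cells of a type and more RNA per cell cannot be told apart.

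Neither 1 floxed copy nor the diet changed a marker past the threshold. Mean age was 30.1 weeks in HET mice on HFD and 25.6 on chow, and 35.3 weeks in KO mice on HFD and 38.9 on chow. Diet and age thus cannot be told apart in the diet contrasts or the interaction. In HET against WT livers on chow 0 of 9 were called by limma, 0 had an unadjusted p under 0.05 (4.30% of all genes did), and 0% of all genes were called. The differences ran from -0.47 in Itgax to 0.51 in Gpnmb, and the 95% interval reached from -0.20 to 0.61 for Cx3cr1 and from -0.67 to 0.44 for Trem2. In HET livers HFD against chow gave 0 of 9 calls and 0 with an unadjusted p under 0.05 in limma, beside 0.198% and 10.2% of all genes. The differences there lay between -0.33 (Cd9) and 0.58 (Itgax), with 5 of 9 positive. In KO livers HFD against chow also gave 0 of 9 calls, beside 0.316% of all genes, and 3 of 9 markers had an unadjusted p under 0.05 in limma, as did 11.1% of all genes. These were Cx3cr1 (0.56 ± 0.17, adjusted p = 0.216), Cd9 (0.69 ± 0.25, adjusted p = 0.311) and Lgals3 (0.46 ± 0.14, adjusted p = 0.236). They were also the 3 of 9 whose HFD arrays all lay above the chow arrays in KO livers, as did 9.22% of all genes. The interaction was called for 0 of 9 markers, with 1 (Cd9) at an unadjusted p under 0.05 in limma. Of all genes 0.0361% were called and 9.86% had an unadjusted p under 0.05, so 1 of 9 is near the share of all genes. For Ly6c2 it was 0.03, interval -1.07 to 1.12, and for Cx3cr1 0.26, interval -0.25 to 0.78.

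Within a group, livers differed across several markers at once. KO H2 was above its group mean for 9 of 9 markers and KO H1 for 1 of 9. HET F1 was above its group mean for 8 of 9, HET P1 for 2 of 9, and in KO livers on HFD C4 was the lowest of its group for 6 of 9. The mean over the 9 markers ran from 3.03 in P1 to 3.88 in F1 among HET livers on chow and from 4.31 in H1 to 5.22 in H2 among KO livers on chow. It was 3.14 and 3.44 in WT, 3.30 to 3.73 in HET on HFD and 4.91 to 5.57 in KO on HFD, so that no KO liver fell within the range of the other groups. The SD of Cx3cr1 was 0.13 in KO livers on chow and 0.20 in KO livers on HFD, and that of Gpnmb 1.33 and 0.52 (n = 3 each). After removal of group means, Pearson r was positive for 28 of 36 marker pairs, but that of Cx3cr1 with every other marker was negative (-0.48 to -0.05). F1 was also the highest HET and H1 the lowest KO array on chow in the mean of other lists, among them pan-macrophage, Kupffer, dendritic and stellate cells. F1 and H1 did not both hold these places in the neutrophil, B cell, T and NK cell, hepatocyte and interferon lists. In the T and NK list F1 was still the highest HET array on chow (3.61), but KO I1 was the lowest KO array. In the B cell and interferon lists H1 was the lowest KO array on chow, but F1 was not the highest HET array.

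**Figure D3:**
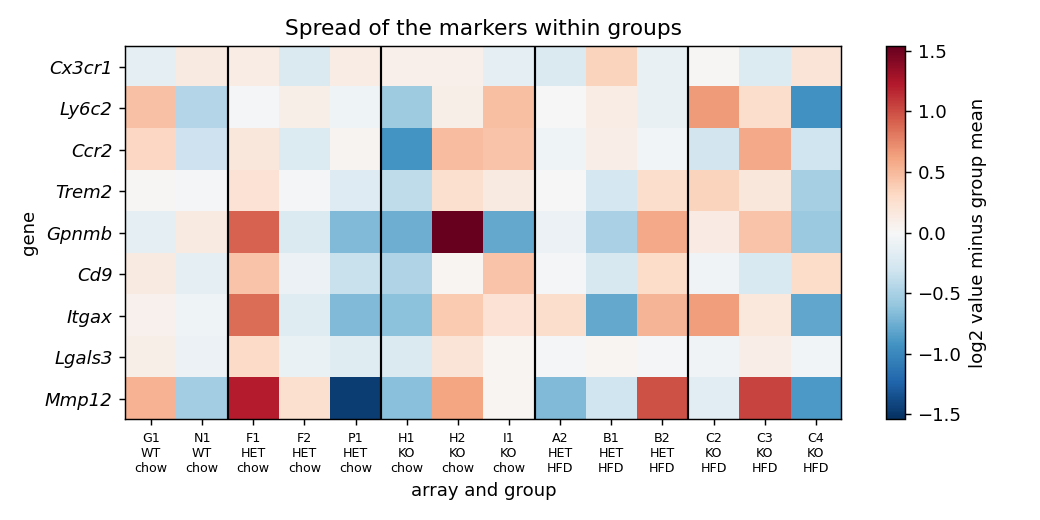
Log2 value of each marker minus the mean of its group (red higher, blue lower), for each of the 14 arrays, with lines between groups. Column H2 is above 0 in all 9 rows and column H1 in 1, while the row of Cx3cr1 is pale.

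The ligands and partners of the markers were followed as a list of 21 genes, all measured. On chow 1 rose and 0 fell in KO over HET livers, and on HFD 5 rose and 1 fell, with list medians of 0.26 and 0.36. The interaction was called for 0 of 21. The riser on both diets was Lgals3bp, the secreted galectin-3 binding protein, by 1.56 ± 0.14 on chow (adjusted p = 8.80e-05) and 1.59 ± 0.14 on HFD (adjusted p = 4.80e-05). On HFD Cd44, a receptor of osteopontin and hyaluronan, rose by 1.32 ± 0.27 (adjusted p = 0.00989), Itgb2, the beta chain that pairs with CD11c, by 0.94 ± 0.26 (adjusted p = 0.0438), and the tetraspanin Cd81 by 0.52 ± 0.10 (adjusted p = 0.00645). Il34, a ligand of the CSF1 receptor, also rose (0.80 ± 0.19, adjusted p = 0.0200). Sdc4, a heparan sulfate proteoglycan, fell by 0.85 on the log2 scale (-0.85 ± 0.11, adjusted p = 4.54e-04). The chemokines were not called, among them the CCR2 ligand Ccl2 (0.77 ± 0.30 on chow, adjusted p = 0.272, and 0.72 ± 0.30 on HFD, adjusted p = 0.192) and fractalkine, Cx3cl1 (0.68 ± 0.31 on chow, adjusted p = 0.355, and 0.87 ± 0.31 on HFD, adjusted p = 0.116). Tyrobp, the TREM2 adaptor, differed by -0.37 ± 0.23 on chow (adjusted p = 0.533) and 0.31 ± 0.23 on HFD (adjusted p = 0.490), neither called.

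Other genes of the lipid-associated macrophage programme also rose. Of 29 measured non-members, 16 rose and 1 fell in KO over HET livers on HFD and 6 rose and 0 fell on chow, with medians of 0.60 and 0.39, and the interaction was called for 0 of 29 by limma. Lgals1, the small galectin-1, rose by 3.51 ± 0.26 on HFD (adjusted p = 6.96e-06) and 2.01 ± 0.26 on chow (adjusted p = 0.00118). The fatty acid transporter Cd36 (2.46 ± 0.15 on HFD, adjusted p = 1.26e-06), the membrane-binding annexin Anxa2 (2.31 ± 0.24, adjusted p = 1.31e-04) and the protease inhibitor Cstb (1.59 ± 0.23, adjusted p = 0.00132) followed. Cd36, Plin2 and Apoe are also made by hepatocytes, so that this list is not read as macrophages alone. The member that fell was Fabp5, a fatty acid binding protein, at 7.06 ± 0.41 in HET and 5.42 ± 0.37 in KO livers on HFD (SD, n = 3 each, change -1.64 ± 0.41, adjusted p = 0.0285).

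The monocyte list held 19 measured non-members, of which 7 rose and 0 fell on HFD and 1 rose on chow. Plac8, a small protein of monocytes and other white cells, was the riser on both (1.16 ± 0.12 on HFD, adjusted p = 1.62e-04, and 0.85 ± 0.12 on chow, adjusted p = 0.00279). On HFD Ms4a4c rose by 2.23 ± 0.36 (adjusted p = 0.00268), the endotoxin co-receptor Cd14 by 1.93 ± 0.38 (adjusted p = 0.00845) and the inhibitory receptor Clec12a by 1.18 ± 0.17 (adjusted p = 0.00113). Of genes common to all macrophages, 7 of 13 rose and 0 fell on HFD and 0 rose and 0 fell on chow (medians 0.80 and 0.37). In KO livers 1 of these 13 and 1 of the 19 monocyte genes rose on HFD against chow, and 0 fell. Of all genes 0.316% were called in that contrast. The interaction was called for 0 of these 13 and 0 of the 19, so the KO minus HET difference was not shown to differ between the diets. On HFD Aif1, an actin-binding protein of macrophages, had the smallest p (0.72 ± 0.12, adjusted p = 0.00260). Cybb, a subunit of the phagocyte oxidase, rose by 1.78 ± 0.33 (adjusted p = 0.00558), the leukocyte antigen gene Ptprc by 1.13 ± 0.21 (adjusted p = 0.00590) and the complement gene C1qb by 0.94 ± 0.21 (adjusted p = 0.0163). Csf1r, the receptor for the macrophage growth factor CSF1, stood at 8.08 ± 0.30 in KO and 8.26 ± 0.28 in HET livers on chow, and at 8.64 ± 0.12 and 8.24 ± 0.31 on HFD (SD, n = 3 each), far above the array medians and not called in either contrast (adjusted p = 0.775 and 0.278).

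Of 13 measured markers of resident Kupffer cells, 0 rose and 2 fell on HFD, and 0 rose and 1 fell on chow, with list medians of 0.19 and -0.19. Timd4, a phosphatidylserine receptor of long-lived resident macrophages, was 6.82 ± 0.12 in HET and 5.42 ± 0.13 in KO livers on HFD (SD, n = 3 each), a change of -1.39 ± 0.22 (adjusted p = 0.00230), and it also fell on chow (-1.52 ± 0.22, adjusted p = 0.00281). Cd163, the haptoglobin-haemoglobin scavenger receptor, was 7.43 ± 0.23 and 4.97 ± 1.24 (SD, n = 3 each), a change of -2.46 ± 0.45 (adjusted p = 0.00520). On chow Cd163 differed by -1.71 ± 0.45 without a call (adjusted p = 0.0827). Clec4f, a lectin typical of Kupffer cells, was 8.74 in both groups on HFD (difference 0.00 ± 0.18, adjusted p = 0.997). The ranges of the list mean on HFD were 7.25 to 7.72 in HET and 7.30 to 7.44 in KO livers.

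**Figure D4:**
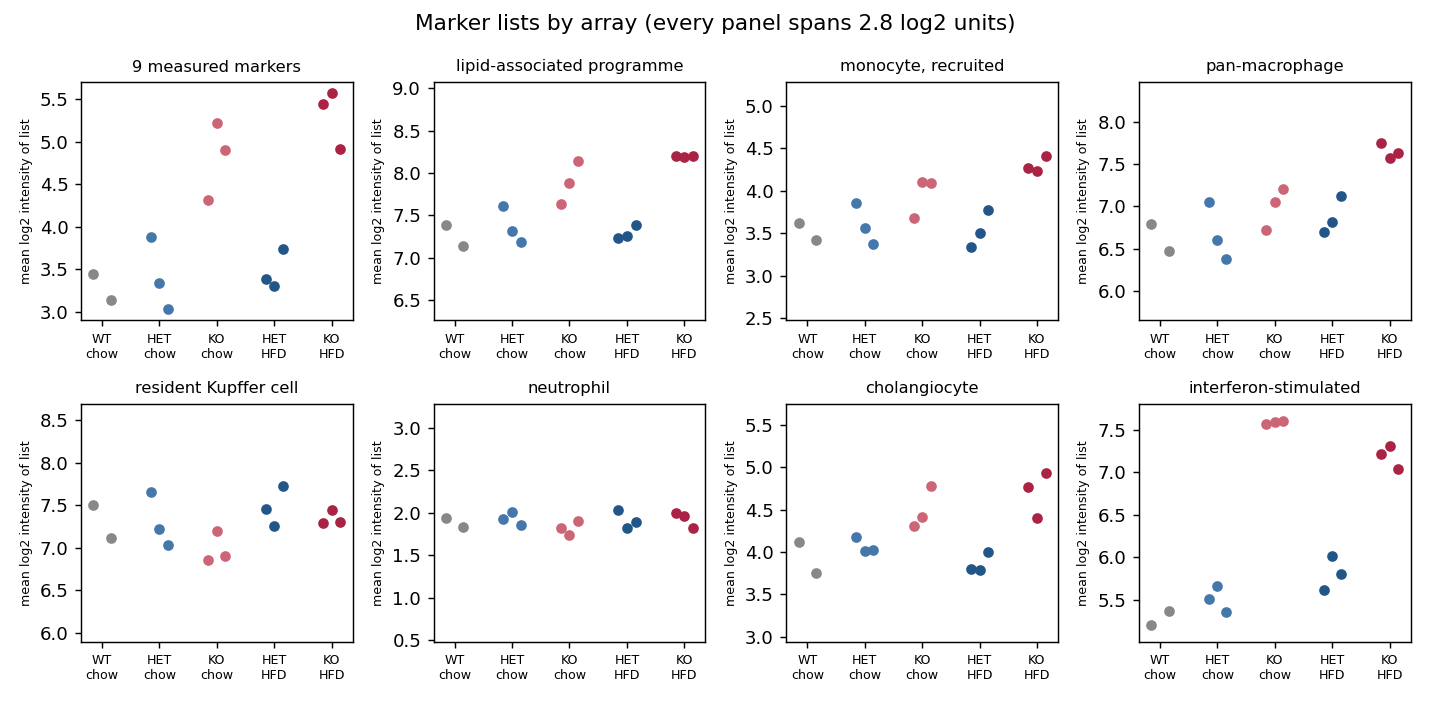
Mean log2 intensity over the measured genes of 8 lists in each of the 14 arrays, by group, with every panel spanning the same number of log2 units. The mean of the 9 markers is higher in all 6 KO arrays than in the others, as are those of the interferon-stimulated and cholangiocyte lists. The lipid-associated list separates narrowly (KO H1 7.64, HET F1 7.61). The monocyte, pan-macrophage, Kupffer cell and neutrophil lists overlap between groups.

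Lists of other cell types and of the interferon response are set beside the markers here, and their part in the marker values was not tested. The neutrophil list, relevant to Ly6c2, Itgax and Mmp12, had 0 of 13 called on either diet, and its mean lay between 1.73 and 2.03 over all arrays, below the array medians. Its defining genes Ly6g and S100a8 were below the median on 14 of 14 arrays. The cholangiocyte list, relevant to Cd9, had 0 of 13 called against HET on chow and 1 up and 0 down against WT. Against HET on HFD it had 5 up and 0 down, with a list mean of 3.79 to 4.0 in HET and 4.40 to 4.94 in KO livers. There Krt8 rose by 1.45 ± 0.18 (adjusted p = 3.58e-04) and Tspan8 by 2.04 ± 0.38 (adjusted p = 0.00588), and the difference was positive for 13 of 13 on HFD and 11 of 13 on chow. Epcam, a surface protein of bile duct cells, was 3.11 to 3.91 in HET and 4.20 to 4.73 in KO livers on chow (0.93 ± 0.29, adjusted p = 0.155). Of the defining keratins of bile ducts, Krt7 had group means of 2.34 to 2.43, near the array medians. Krt19 was 1.96 to 2.55 in 13 arrays and 3.17 in KO I1, which was also the highest for Cd9 of the KO arrays on chow. The dendritic cell list, relevant to Itgax, had 0 of 10 called on chow and 3 up and 0 down on HFD, with a mean of 3.99 to 4.20 in HET and 4.63 to 4.67 in KO livers on HFD. Interferon-stimulated genes moved on both diets, 16 of 18 rising and 0 falling on chow and 13 of 18 rising and 0 falling on HFD. The interferon list mean was 5.35 to 5.66 in HET and 7.56 to 7.60 in KO livers on chow, and 5.61 to 6.01 and 7.03 to 7.31 on HFD. Of the hepatocyte list 5 of 13 fell and 0 rose on HFD and 0 of 13 were called on chow, with a mean of 11.7 to 11.8 in HET and 11.4 to 11.5 in KO livers on HFD. The interaction was called for 0 of 13 cholangiocyte, 0 of 10 dendritic cell and 0 of 13 hepatocyte genes.

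With age in weeks as a linear term, 1 of the 12 marker calls made against HET or WT remained, that of Cx3cr1 on HFD (3.41 ± 0.42, adjusted p = 0.00362). The age slope in that fit rests on age differences within groups, which span 2.4 weeks in WT, 2.4 in HET on chow, 0.4 in HET on HFD and 0 in both KO groups. On chow Cx3cr1 was then 3.99 over HET and not called (adjusted p = 0.107), and Trem2 over HET was 0.38 (adjusted p = 0.957). Ly6c2 was 0.18 over HET on chow (adjusted p = 0.991) and 1.70 on HFD (adjusted p = 0.504). On HFD Trem2 was 1.45, Gpnmb 1.88, Cd9 0.47 and Lgals3 0.014, none of them called (adjusted p = 0.358 to 0.996).

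Genes whose values ran most closely with the mean of the 9 scaled markers over the 14 arrays were Rbl1 (Pearson r = 0.971), Tinag (0.967), Eda2r (0.965), the lysosomal protease gene Ctss (0.964) and the proliferation marker Mki67 (0.959), followed by Nrg1, Stk10, Actr3, Tpx2 and Tmem176b (0.957 to 0.953). Much of this likeness is the KO difference that the genes share. After removal of the group means r was 0.826 for Rbl1, 0.770 for Ctss and 0.670 for Mki67. By marker, the nearest gene was Ifi27l2b for Cx3cr1 (r = 0.986, and 0.251 within groups), Eda2r for Ly6c2 (0.974 and 0.878) and for Trem2 (0.975 and 0.787), and the lectin receptor Clec7a for Gpnmb (0.952 and 0.851). It was Gclc for Cd9 (0.975 and 0.962), with the tetraspanin Cd63 next (0.967 and 0.890), Cd53 for Lgals3 (0.956 and 0.868), Ltb for Itgax (0.943 and 0.847), Knstrn for Ccr2 (0.941 and 0.924) and Man2b2 for Mmp12 (0.938 and 0.904). These are descriptions over 14 arrays in 5 groups, chosen as the largest of 22180 genes.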

How the data were processed

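Liver RNA of 14 mice was hybridized to Affymetrix whole-transcript arrays, 1 mouse per array, from 400 ng of total RNA per the labels. The authors deposited log2 values per probe set, made with RMA per the submitters' processing notes, which name limma too and give no versions. Genome build and any batch step are not given in the sources used here. Of 41345 probe sets 23521 had 1 symbol, 1814 several and 16010 none, and the brightest single-symbol probe set of each gene was used (22180 genes, all tested).

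limma 3.58.1 in R 4.3.3 fitted 5 group means to all arrays (9 residual and 3.83 prior degrees of freedom). In 7 contrasts p-values were adjusted by Benjamini and Hochberg and called under 0.05. In data simulated for KO against HET on chow over 22180 genes, 10 of 50 genes with a true log2 change of 0.5, 36 of 50 with a change of 1 and 50 of 50 with a change of 2 or 3 were called, with 10 false calls.

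Members, gene lists and motifs were chosen with earlier results of these data known. Named are all members, up to 4 genes per list with the smallest p in a contrast, Kupffer cell and cholangiocyte genes set beside a result, and the genes most alike (10 for the marker mean, up to 3 per marker). Csf1r, Tyrobp, Fabp5, Cx3cl1, Itgb2, Il34, Cd14, Reln, Ly6c1, Ly6g and Lmna lie outside this rule and were picked with their values known. Alternatives were array weights, a trended robust prior, a floor on dim probe sets (above the array median on at least 2 arrays), averaged probe sets, only the groups compared, centring, a second quantile normalization, the array letter as a random block, age, the next brightest probe set and leaving out each array. Leaving out HET F1 and F2 together was chosen after seeing the data, and it leaves P1 as the only HET array on chow. P-values measure the spread between mice, whose litters the labels do not give.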

Additional observations from a re-analysis of the deposited data

How the results depend on the processing

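No paired analysis was possible because the labels give array names and no replicate numbers shared between groups. The 12 marker calls, 3 on chow against HET, 3 against WT and 6 on HFD, all remained with array weights, a floor on dim probe sets, averaging of probe sets and centring. Of them 11 remained with the trended prior, only the groups compared, a second quantile normalization and the letter block. With the letter block no call other than that of Lgals3 was lost. No letter is shared between groups, and the KO arrays on HFD all carry the letter C, so this block cannot separate letter from group. With age as a linear term the counts were 0 on chow against HET, 0 against WT and 1 on HFD, and without HET F1 and F2 together the chow count against HET was 1. Without single arrays the counts were 3 to 4 on chow against HET, 2 to 4 against WT, 5 to 7 on HFD and 0 to 0 in the other contrasts. The gains were in Ccr2 and Itgax.

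Directions turned only where a difference was not called. With the age term the KO minus HET chow differences became -0.28 (Ccr2), -0.75 (Gpnmb), -1.93 (Cd9), -2.19 (Itgax), -1.06 (Lgals3) and -7.65 (Mmp12), and those against WT -0.086, -0.20, -1.58, -2.61, -0.80 and -7.48 in the same order. Mmp12 on HFD became -1.61. For HFD against chow in HET livers the age term gave -0.27 (Ccr2), -0.67 (Itgax), -0.26 (Lgals3) and -2.90 (Mmp12), in KO livers 0.55 (Ly6c2), and for the interaction -0.58 (Cx3cr1). Without F1 and F2 together HET minus WT became -0.18 (Gpnmb), -0.036 (Cd9) and -1.42 (Mmp12), HFD minus chow in HET 0.049 (Trem2), 0.46 (Gpnmb) and 0.022 (Cd9), and the interaction -0.044 (Ly6c2), -0.64 (Itgax) and -0.81 (Mmp12). A second quantile normalization turned the interaction of Ly6c2 to -4.48e-04 and of Itgax to -0.078, array weights turned Mmp12 in HFD minus chow in HET to -0.33, and the dim probe set of Cd9 gave -0.039 for KO minus HET on chow. The causes were not tested.

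Leaving out single arrays moved the uncalled KO minus HET differences on chow between 0.73 and 1.43 (Ccr2), 0.96 and 2.18 (Gpnmb), 0.11 and 0.56 (Cd9), 1.12 and 1.90 (Itgax) and 0.16 and 0.41 (Lgals3). It moved HET minus WT between -0.15 and 0.49 (Ccr2), -0.20 and 0.71 (Ly6c2) and -0.57 and 0.77 (Mmp12). It moved HFD minus chow in HET between -0.57 and 0.23 (Gpnmb) and -0.63 and 0.71 (Mmp12), and in KO between -0.13 and 0.57 (Ccr2) and -0.44 and 0.35 (Ly6c2). The interaction moved between -0.28 and 0.42 (Ccr2), -0.39 and 0.44 (Itgax) and -0.30 and 0.49 (Ly6c2). Among all genes the count of calls on chow against HET, 426, became 216 with only the groups compared, 201 with age and 143 without F1 and F2, and ran from 199 to 520 without single arrays. Against WT, 367 became 162, 124 and 345, and ran from 154 to 411. On HFD, 1677 became 249 with age and ran from 971 to 1788. In HFD against chow, 44 calls in HET livers ran from 3 to 271 and 70 in KO livers from 44 to 221, and the 8 interaction calls from 1 to 206, over settings other than single arrays. Single arrays moved these to 13 to 164, 13 to 119 and 0 to 43. HET against WT, with 0, ran to 6 and to 10 without single arrays.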

Other observations

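Other immune and stromal genes moved in KO livers on HFD beside the macrophage markers. Both chains of the class II antigen-presenting molecule rose over HET livers, H2-Aa by 1.24 on the log2 scale and H2-Ab1 by 1.38, as did Siglech, a lectin of plasmacytoid dendritic cells, by 1.52. Among 13 measured T and NK cell markers 2 rose and 0 fell on HFD, Cd8b1 by 1.33 and Ncr1 by 1.41, and 0 of 13 were called on chow. Of 6 measured B cell markers 0 were called on either diet. Their list mean, 2.47 to 3.14 over the arrays, lay little above the array medians of 2.21 to 2.30. Of 15 stellate cell and matrix genes 4 rose and 1 fell on HFD, with the collagen chains Col1a1 at 2.07, Col1a2 at 1.57 and Col3a1 at 1.46, the proteoglycan Lum at 1.26, and Reln, made by stellate cells, at -0.76. On chow 1 rose (Lum, 1.34) and 1 fell (Lrat, -1.22). The interaction was called for 0 of 15 stellate cell genes and 0 of 13 T and NK cell markers. Endothelial markers had 1 of 13 lower on HFD, the scavenger receptor Stab2 (-0.40), and 0 called on chow.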
